A study of Homo sapiens with 24 samples.

Results

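The S100 proteins are small calcium-binding proteins, and 9 of their genes were described here: S100A2, S100A4, S100A6, S100A10, S100A11, S100A13, S100A14, S100A16 and S100P. They were taken by symbol from the 17448 genes tested, and each had 1 probe set of its own. The arrays came from SW1222, an established line of human colorectal cancer cells, with DPPA3 overexpressed, knocked down or knocked out. DPPA3 is a germ cell and oocyte protein that binds the DNA methylation factor UHRF1. The 24 arrays fell into 9 groups, all grown at 21% oxygen. A line overexpressing DPPA3 under doxycycline and its control line both received 5 µg/ml of the drug, for 5 days as Matrigel-embedded megacolonies (3D) or for 4 hours in 2D, with 3 arrays per line and culture. A DPPA3 shRNA line and a control shRNA line had 3 arrays each in 3D. Knockout clones C66 and C75, each a single clone, and a control line for the knockouts (scrambled guide) had 2 arrays each in 3D, and these lines and the shRNA lines were not treated. No arrays of the overexpressing line without the drug were analysed here, so what DPPA3 did and what already set the lines apart cannot be told apart. The labels do not say whether replicate arrays came from separate cultures, so the p-values measure the spread between these arrays.

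S100 proteins carry a pair of EF-hand loops that bind calcium, and as dimers they then expose a surface that grips a partner protein. They act inside the cell on the cytoskeleton, membranes and annexins, and some are released and bind surface receptors such as AGER (RAGE). Most of their genes lie in a cluster on the long arm of chromosome 1. S100A4, also called metastasin, binds non-muscle myosin and is known in colorectal cancer for its link with motility and metastasis. S100P, whose gene lies on chromosome 4, binds ezrin and is raised in several carcinomas.

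The genes that passed in a comparison of a DPPA3 line with its control were S100A4, S100A14 and S100P, so the stretch before the start of each is printed, with that of S100A10, which passed in no such comparison. Each run is the 250 bases before a RefSeq start site on GRCh38.p14, 5′ to 3′ on the gene's own strand, and capitals mark CG pairs and the letters TATAAA. All 9 genes had an entry, and S100A2, S100A13 and S100A16 had several starts. The window of S100A4 is chr1:153545807-153546056 (minus strand), that of S100A14 chr1:153616326-153616575 (minus), that of S100P chr4:6693628-6693877 (plus) and that of S100A10 chr1:151993860-151994109 (minus).
S100A4: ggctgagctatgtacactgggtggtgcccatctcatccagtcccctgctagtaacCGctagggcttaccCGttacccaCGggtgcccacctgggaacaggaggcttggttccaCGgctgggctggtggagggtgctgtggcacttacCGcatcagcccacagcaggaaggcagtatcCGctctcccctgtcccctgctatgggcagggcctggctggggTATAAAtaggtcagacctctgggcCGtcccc
S100A14: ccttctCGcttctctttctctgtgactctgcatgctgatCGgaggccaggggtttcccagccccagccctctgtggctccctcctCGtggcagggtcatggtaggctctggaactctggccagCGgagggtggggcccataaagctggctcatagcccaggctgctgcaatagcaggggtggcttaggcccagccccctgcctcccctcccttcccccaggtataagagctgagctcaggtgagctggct
S100P: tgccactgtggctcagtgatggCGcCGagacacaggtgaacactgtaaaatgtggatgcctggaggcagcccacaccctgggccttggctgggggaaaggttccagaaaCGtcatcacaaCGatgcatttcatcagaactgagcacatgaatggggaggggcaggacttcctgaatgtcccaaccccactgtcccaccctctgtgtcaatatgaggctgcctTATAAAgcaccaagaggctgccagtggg
S100A10: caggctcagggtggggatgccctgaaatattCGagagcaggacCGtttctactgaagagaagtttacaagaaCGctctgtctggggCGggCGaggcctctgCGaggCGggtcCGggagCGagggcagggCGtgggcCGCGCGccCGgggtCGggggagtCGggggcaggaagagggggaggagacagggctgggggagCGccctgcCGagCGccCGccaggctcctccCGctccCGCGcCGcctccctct
The S100A4 window held 7 CG pairs, those of S100A14 and S100P 4 each and that of S100A10 24, against a median of 11 over 35116 windows of the same length. S100A6 also had 24 and S100A11 had 15. The windows of S100A2 held 3 and 4, those of S100A16 6 and 1 and those of S100A13 8, 10 and 15. S100A2 and S100A16 thus held fewer than S100A4, though neither passed in a comparison of a DPPA3 line with its control. TATAAA stood on the gene's own strand in the windows of S100A4, where its first base lies at position -31 from the start, and of S100P, at -28, and in 1 of 3 windows of S100A13, at -29. It was present in 6.8% of all windows on the own strand and in 10.7% on either strand. ACGTG, the core of a hypoxia response element, occurred on either strand in 1 of the S100A16 windows and in 18.5% of all windows. The related core GCGTG was found in 32.2% of all windows and in at least 1 window of S100A2, S100A6, S100A10, S100A11, S100A13 and S100A16. TGACTCA, an AP-1 motif, was found in 1 window of S100A2 and in 4.2% of all windows. These matches describe letters, not binding, and DNA methylation was not measured here.

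All values are log2 signals, and a gene passed at a limma p below 0.05 after Benjamini-Hochberg adjustment over all 17448 genes. Of the 9 genes, 5 passed in at least 1 of 8 comparisons and 4 passed in none. With induction in 3D, 2 genes rose (S100A4 and S100P) and 0 fell, where 5.7% of all genes passed; 4 had arrays that did not overlap between the groups, against 18.3% of all genes. With induction in 2D, 1 rose (S100A4) and 5 did not overlap, against 3.13% of all genes passing and 16.7% not overlapping. With the DPPA3 shRNA, 0 of 9 passed in limma and 1 (S100A4) had an unadjusted p under 0.05, with 1 not overlapping; 0.086% of all genes passed, 5.26% had an unadjusted p under 0.05 and 10.8% did not overlap.

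In clone C66, 2 genes rose (S100A4 and S100A14) and 5 did not overlap, against 1.43% and 42.9% of all genes. In clone C75, 0 passed in limma, 2 had an unadjusted p under 0.05 and 6 did not overlap, against 0.619%, 8.12% and 40.5% of all genes; with 2 arrays a group, non-overlap is common. Between the clones 1 gene differed (S100A4) and 6 did not overlap, against 2.9% and 41.8%. The effect of induction differed between 3D and 2D for 0 genes in limma, with 1 (S100A16) at an unadjusted p under 0.05, against 0.241% and 8.98% of all genes. In the control line, 1 gene was higher in 3D than in 2D (S100P) and 2 lower (S100A10 and S100A16), with 3 not overlapping, against 7.8% and 23.2% of all genes. The median log2 fold change of the 9 genes beside that of all genes was 0.20 beside -0.009 for induction in 3D and 0.12 beside 0.004 in 2D. It was 0.08 beside -0.001 for the shRNA, 0.09 beside -0.008 for C66 and -0.14 beside -0.002 for C75. The plot of signals in every array shows each gene on a scale of equal height.

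**Figure D1:**
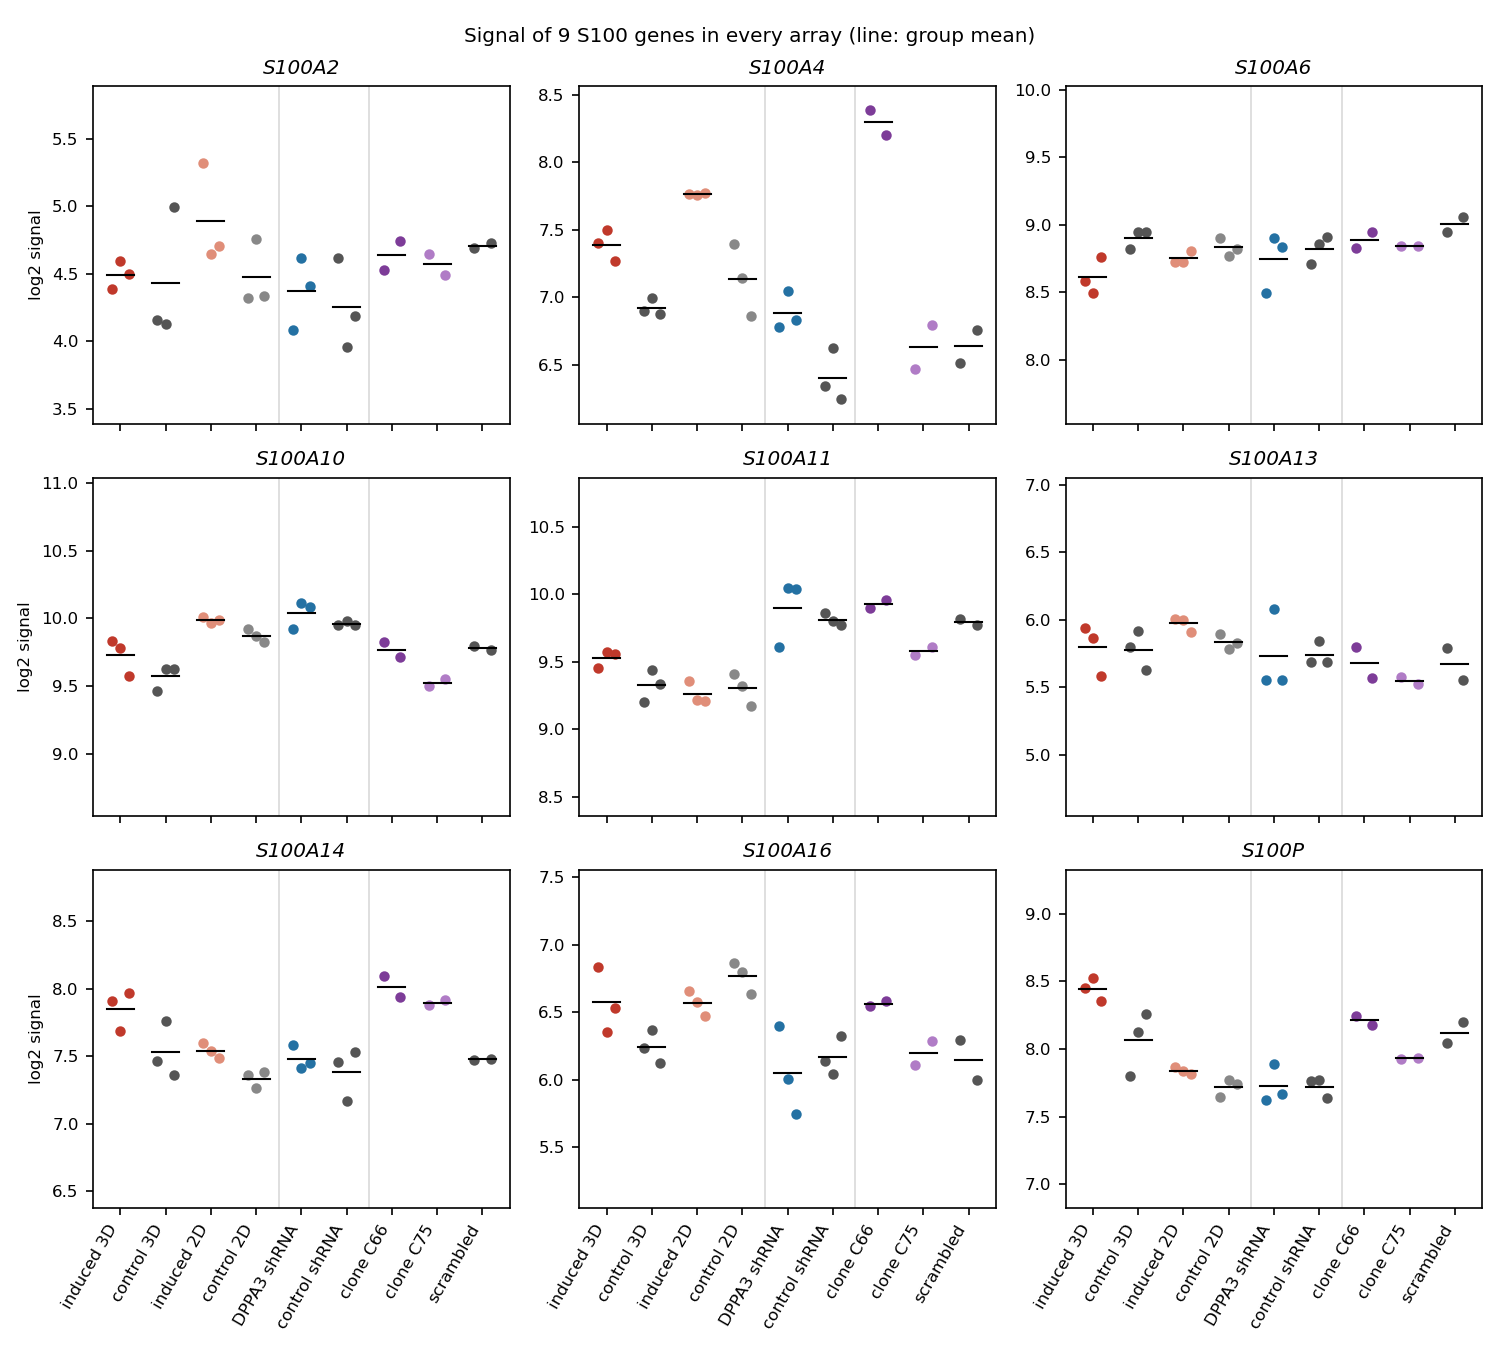
Log2 signal (vertical axis, the same span of 2.5 in each panel) of the 9 S100 genes in each of the 24 arrays, by group (horizontal axis). Points are arrays, black lines group means and grey lines separate the experiments; the C66 arrays of S100A4, at 8.38 and 8.20, stand above all other arrays of that gene.

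S100A4 was the member with the widest spread of group means, 1.89 log2 from the lowest to the highest group. In clone C66 its signal was 8.38 and 8.20, against 6.52 and 6.76 in the scrambled control. Both C66 arrays stood above every other array of the series. The log2 fold change was 1.66 (SE 0.16, 95% interval 1.33 to 1.98, adjusted p = 9.97e-07), a 3.15-fold rise, and it ranked 1 of 17448 genes by size of rise in this clone. In clone C75 the signal was 6.47 and 6.79, overlapping the same 2 control arrays, with 1 array below both and 1 above both. Its log2 fold change was -0.007 (95% interval -0.33 to 0.32, adjusted p = 0.998). The difference between the clones was itself tested, at 1.66 log2 (SE 0.16, adjusted p = 1.31e-07). Both clones share their control arrays, so the direct comparison of C66 with C75 does not rest on them. A property of the C66 clone cannot be told apart from an effect of losing DPPA3.

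With DPPA3 induced, S100A4 was also higher than in the control line. In 2D the induced arrays stood at 7.76, 7.75 and 7.77 and the control arrays at 7.39, 7.14 and 6.86, so the groups did not overlap. The rise was 0.63 log2 (SE 0.13, adjusted p = 0.00374), or 1.55-fold, after 4 hours of the drug. In 3D the induced arrays stood at 7.40, 7.49 and 7.27 and the control arrays at 6.89, 6.99 and 6.87, again apart. This rise was 0.47 log2 (SE 0.13, adjusted p = 0.0288), or 1.38-fold. This call did not hold without induced 3D array 1 or 2 (adjusted p = 0.0871 and 0.0991) or control 3D array 1 or 3 (0.0840 and 0.0876), with log2 fold changes of 0.41 to 0.46. The rise in 3D minus that in 2D was -0.17 (95% interval -0.54 to 0.21, adjusted p = 0.867).

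With the DPPA3 shRNA, S100A4 read 6.78, 7.04 and 6.83, against 6.34, 6.63 and 6.24 with the control shRNA. The arrays did not overlap, the log2 fold change was 0.48 (SE 0.13) and the unadjusted p 0.000936 ranked 55 of 17448 genes, but the adjusted p was 0.297, so the gene did not pass. In 4 of the 5 comparisons of a DPPA3 line with its control, all S100A4 arrays of the DPPA3 line were above all of their controls. Of these 4, 3 passed. They pool opposite changes of DPPA3, since induction in 3D and in 2D raised it while the shRNA and C66 were aimed at its loss. Arrays did not overlap, in either direction, for 18.3%, 16.7%, 10.8% and 42.9% of all genes in these comparisons. The other knockout clone, C75, overlapped its control. DPPA3 itself ranged from 3.77 to 4.74 with induction in 3D, from 4.18 to 6.16 with induction in 2D and from 2.59 to 3.47 in the control line, and both rises passed (adjusted p = 0.00251 and 0.000475). In the shRNA and knockout arrays it lay between 2.55 and 3.19, with log2 fold changes of -0.04 (shRNA), -0.16 (C66) and 0.19 (C75). None of these passed, at a signal so low that a loss of its RNA could not be measured.

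Across the 9 groups the mean S100A4 signal fell in the order C66 (8.29), induced 2D (7.76), induced 3D (7.39), control 2D (7.13), control 3D (6.92), DPPA3 shRNA (6.88), scrambled (6.64), C75 (6.63) and control shRNA (6.40). Neighbours in this order were apart for C66 and induced 2D, induced 2D and induced 3D, and DPPA3 shRNA and scrambled. The other neighbours overlapped. Levels in different experiments were set beside each other without a test. The plot of changes over control sets S100A4 beside the other members.

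**Figure D2:**
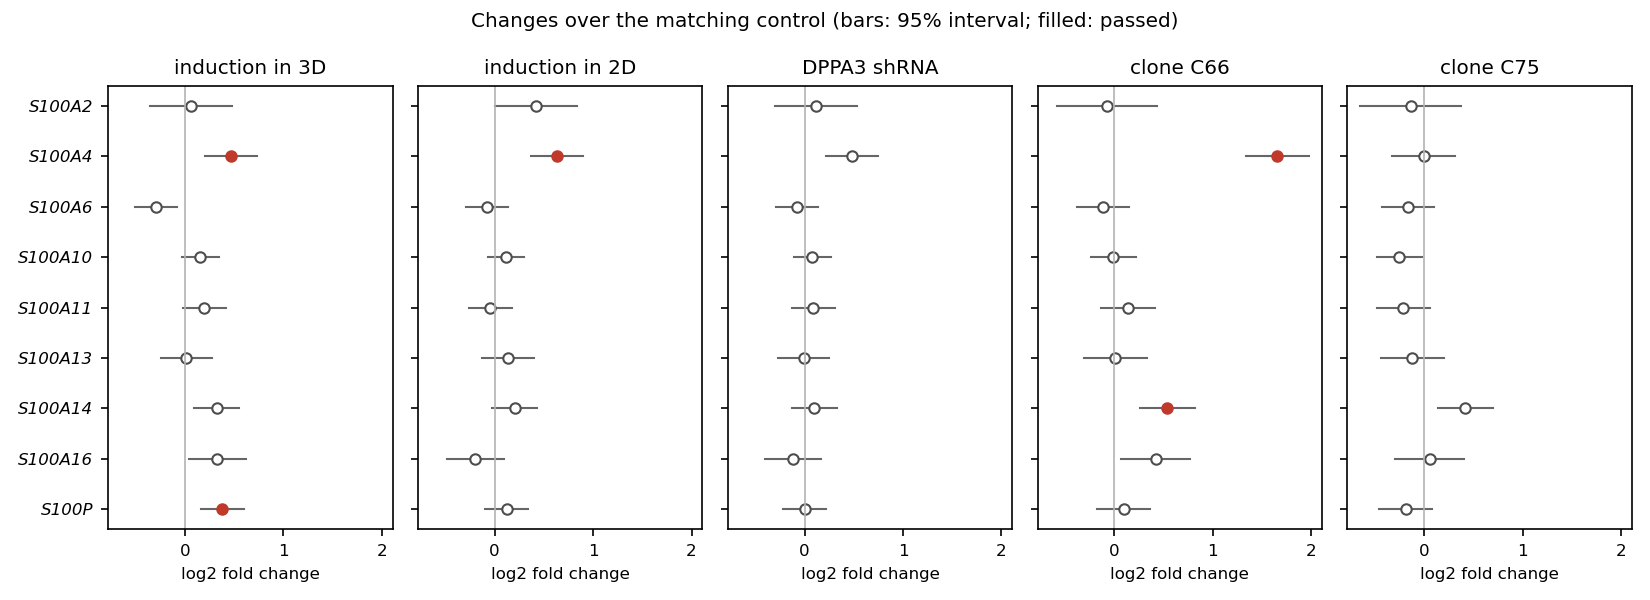
Log2 fold change (horizontal axis) of each of the 9 S100 genes over its matching control in 5 comparisons; points are estimates, bars 95% intervals, and filled points passed at an adjusted p under 0.05. S100A4 in clone C66, at 1.66, lies furthest from 0.

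S100A14 is found mostly in epithelia, and its gene lies near that of S100A16 in the cluster. The C66 arrays were 8.09 and 7.94, the C75 arrays 7.88 and 7.91 and the scrambled controls 7.47 and 7.48. All 4 clone arrays were above both controls. In C66 it rose by 0.54 log2 (SE 0.14, adjusted p = 0.0429), or 1.45-fold. It was 0.42 in C75 (SE 0.14, unadjusted p = 0.00509, adjusted p = 0.245), which did not pass, and the clones differed by 0.12 (95% interval -0.16 to 0.40, adjusted p = 0.927). The C66 call did not hold without any 1 of its 4 arrays. The adjusted p was 0.387 without C66 array 1, 0.111 without C66 array 2, and 0.233 and 0.240 without scrambled array 1 and 2. It was 0.0636 after a repeated quantile normalization.

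With induction in 3D, S100A14 read 7.91, 7.69 and 7.96, against 7.47, 7.76 and 7.36, with 1 control array inside the induced range. The log2 fold change of 0.32 (SE 0.11) had an adjusted p of 0.0989. It passed without induced 3D array 2 (0.41, adjusted p = 0.0462) or control 3D array 2 (0.44, adjusted p = 0.0268). In 2D its arrays were 7.60, 7.54 and 7.48 against 7.36, 7.26 and 7.38, apart by 0.21 log2 (adjusted p = 0.443). The order of its group means began with C66 (8.02), C75 (7.90) and induced 3D (7.85), and ended with control shRNA (7.38) and control 2D (7.33).

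S100A16, a widely expressed member with a single working calcium-binding loop, differed between the 3D and 2D arrays of the control line. The control line read 6.24, 6.37 and 6.13 in 3D and 6.86, 6.80 and 6.64 in 2D, without overlap. It fell by 0.52 log2 from 2D to 3D (SE 0.14, adjusted p = 0.0209). Culture and the length of drug exposure cannot be told apart in this comparison. The call did not hold without control 3D array 1 or 3 (adjusted p = 0.0595 and 0.0754) or control 2D array 1 or 2 (0.0802 and 0.0546).

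In the overexpressing line S100A16 read 6.84, 6.36 and 6.53 in 3D and 6.66, 6.58 and 6.47 in 2D. These ranges overlapped, unlike those of the control line. Induction gave a log2 fold change of 0.33 in 3D (adjusted p = 0.215) and -0.20 in 2D (adjusted p = 0.606), and their difference was 0.53 (95% interval 0.12 to 0.94, unadjusted p = 0.0132, adjusted p = 0.380), which did not pass. The 3D value was 0.20 without induced 3D array 1. The C66 arrays, at 6.55 and 6.58, were above the scrambled arrays, at 6.29 and 6.0, by 0.42 log2 (adjusted p = 0.373), or 0.27 without scrambled array 2. In C75 the log2 fold change was 0.06 (adjusted p = 0.993).

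S100P rose with induction in 3D. The induced line read 8.45, 8.53 and 8.35 and the control line 7.80, 8.13 and 8.26. The 3 induced arrays were above every other array of the series, of which the highest was control 3D array 3. It rose by 0.38 log2 (SE 0.11, adjusted p = 0.0308), or 1.30-fold. The call did not hold without induced 3D array 1 or 2 (adjusted p = 0.0899 and 0.101) or control 3D array 1 (0.25, adjusted p = 0.227), nor with the variance taken from the arrays of the comparison alone (adjusted p = 0.194). The 2D arrays were 7.87, 7.84 and 7.81 with induction and 7.64, 7.77 and 7.74 in the control line, apart by 0.12 (adjusted p = 0.695). The difference between these effects was 0.26 (95% interval -0.05 to 0.57, adjusted p = 0.654).

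In the control line S100P was higher in 3D than in 2D, by 0.35 log2 (SE 0.11, adjusted p = 0.0441), without overlap. That call did not hold without control 3D array 2 or 3 (adjusted p = 0.138 and 0.195) or any of control 2D arrays 1, 2 and 3 (0.138, 0.0603 and 0.0859). With arrays centred on their medians it was 0.30 (adjusted p = 0.0819). The DPPA3 shRNA arrays, at 7.62, 7.89 and 7.67, overlapped their controls, at 7.76, 7.77 and 7.64, with a difference of 0.003 log2 (95% interval -0.22 to 0.22). In C66 it was 0.09 (adjusted p = 0.938) and in C75 -0.19 (adjusted p = 0.821), with the C75 arrays, 7.92 and 7.94, below both controls at 8.04 and 8.20.

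S100A10, S100A11 and S100A6 are known for annexins and other fixed partners, and none of them passed in a comparison of a DPPA3 line with its control. S100A10 does not need calcium and holds annexin A2 in a tetramer at the plasma membrane. In the control line it read 9.46, 9.62 and 9.63 in 3D and 9.92, 9.87 and 9.83 in 2D, a log2 fold change of -0.30 (SE 0.09, adjusted p = 0.0411). The arrays were apart, but the call did not hold when any 1 of the 6 arrays was left out, with log2 fold changes of -0.33 to -0.25 and adjusted p-values from 0.0523 without control 3D array 3 to 0.169 without control 3D array 1. ANXA2, its partner, was lower in 3D as well, at 8.02, 7.95 and 7.98 against 8.71, 8.68 and 8.50, by a log2 fold change of -0.64 (SE 0.12, adjusted p = 0.00149). The C75 arrays of S100A10 (9.50 and 9.55) were below the scrambled arrays (9.79 and 9.77), at -0.25 log2 (unadjusted p = 0.031, adjusted p = 0.540), while ANXA2 gave 0.01 (adjusted p = 0.998).

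S100A11 binds annexin A1 and passed in no comparison. It read 9.45, 9.57 and 9.56 with induction in 3D against 9.20, 9.44 and 9.34, apart by 0.20 (adjusted p = 0.393). The C66 arrays (9.90 and 9.96) were above the scrambled arrays (9.81 and 9.77), and the C75 arrays (9.55 and 9.61) below them. The clones differed by 0.35 (95% interval 0.08 to 0.62, unadjusted p = 0.0138, adjusted p = 0.236). ANXA1 lay the same way around the control, with C66 at 6.55 and 6.32, C75 at 5.13 and 4.91 and the scrambled arrays at 5.96 and 5.81. ANXA1 fell in C75 by 0.86 log2 (SE 0.19, adjusted p = 0.0287), was 0.55 higher in C66 (adjusted p = 0.234) and differed between the clones by 1.42 (adjusted p = 3.57e-05). With induction the 2 genes had opposite signs. ANXA1 gave -0.485 in 3D (adjusted p = 0.0769) and 0.322 in 2D (adjusted p = 0.378), where S100A11 gave 0.20 and -0.043. With the shRNA both were positive, at 0.177 for ANXA1 and 0.09 for S100A11, and neither passed.

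S100A6, or calcyclin, binds CACYBP and annexins. The 3D arrays were 8.58, 8.50 and 8.76 with induction and 8.82, 8.94 and 8.94 in the control line, all induced arrays lower. The difference was -0.29 log2 (SE 0.10, unadjusted p = 0.0101, adjusted p = 0.118), which did not pass. It was the single member with a negative log2 fold change there, and in 2D it was -0.08 (adjusted p = 0.832). The arrays of both clones were below both control arrays, with log2 fold changes of -0.12 in C66 and -0.16 in C75 (adjusted p = 0.902 and 0.883), and neither passed. CACYBP was lower in 3D than in 2D in the control line (-0.43, adjusted p = 0.0233), where S100A6 gave 0.07 (adjusted p = 0.752).

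S100A2, a nuclear member that binds p53, had the lowest position of the 9 among all genes, with 57.3% of genes dimmer, and its replicate SD reached 0.49 in the control 3D group (n = 3). The control 3D arrays read 4.16, 4.13 and 5.00 and the induced 2D arrays 5.32, 4.64 and 4.70. Its largest log2 fold change was 0.42 with induction in 2D (SE 0.20, unadjusted p = 0.049, adjusted p = 0.364), and it was 0.20 without induced 2D array 1. S100A13, which takes part in the release of FGF1 and IL1A, stayed between 5.52 and 6.08 over the 24 arrays. Its log2 fold changes in the 5 DPPA3 comparisons ran from -0.12 (C75) to 0.14 (induction in 2D), and none passed. In 2D the induced arrays read 6.01, 6.0 and 5.91 and the control arrays 5.90, 5.79 and 5.83.

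Between the clones all 9 members had a positive log2 fold change of C66 over C75, from 0.05 (S100A6) to 1.66 (S100A4), with a median of 0.24 beside -0.009 for all genes. The unadjusted p was under 0.05 for 5 of 9 members, against 10.1% of all genes. Apart from S100A4 these were S100A10 (0.24), S100A11 (0.35), S100A16 (0.36) and S100P (0.28), and the adjusted p lay between 0.236 and 0.470. These genes were measured on the same 4 arrays and are not independent.

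The 16 S100 genes tested on chromosome 1 were then placed in their order along the chromosome. The nearest S100 genes on both sides of S100A4 gave estimates near 0 in C66, and none passed. S100A3 gave 0.06 (adjusted p = 0.975), S100A5 0.04 (adjusted p = 0.989), S100A6 -0.12 and S100A2 -0.07 (adjusted p = 0.982). Beyond S100A2, S100A16 gave 0.42 (adjusted p = 0.373) and S100A14 0.54 (adjusted p = 0.0429), which passed. S100A3 and S100A5 were dim, with 24.7% and 33.1% of genes below them, and a change in these could be missed. The remaining 9 other S100 genes measured were S100A1, S100A7, S100A7A, S100A8, S100A9, S100A12, S100B, S100G and S100Z. All 11 other S100 genes lay below the median signal of all genes, and all 9 members above it. The members and lists were chosen with earlier results of these data known, so this split is not a separate result. Of the 11, S100Z passed once (control line in 3D over 2D, -0.37, adjusted p = 0.0448). In the other 7 comparisons 0 of 11 passed in limma, and 0 or 1 had an unadjusted p under 0.05. Of all genes, 7.8% passed for the control line in 3D over 2D and 0.086% to 5.7% in the other comparisons.

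**Figure D3:**
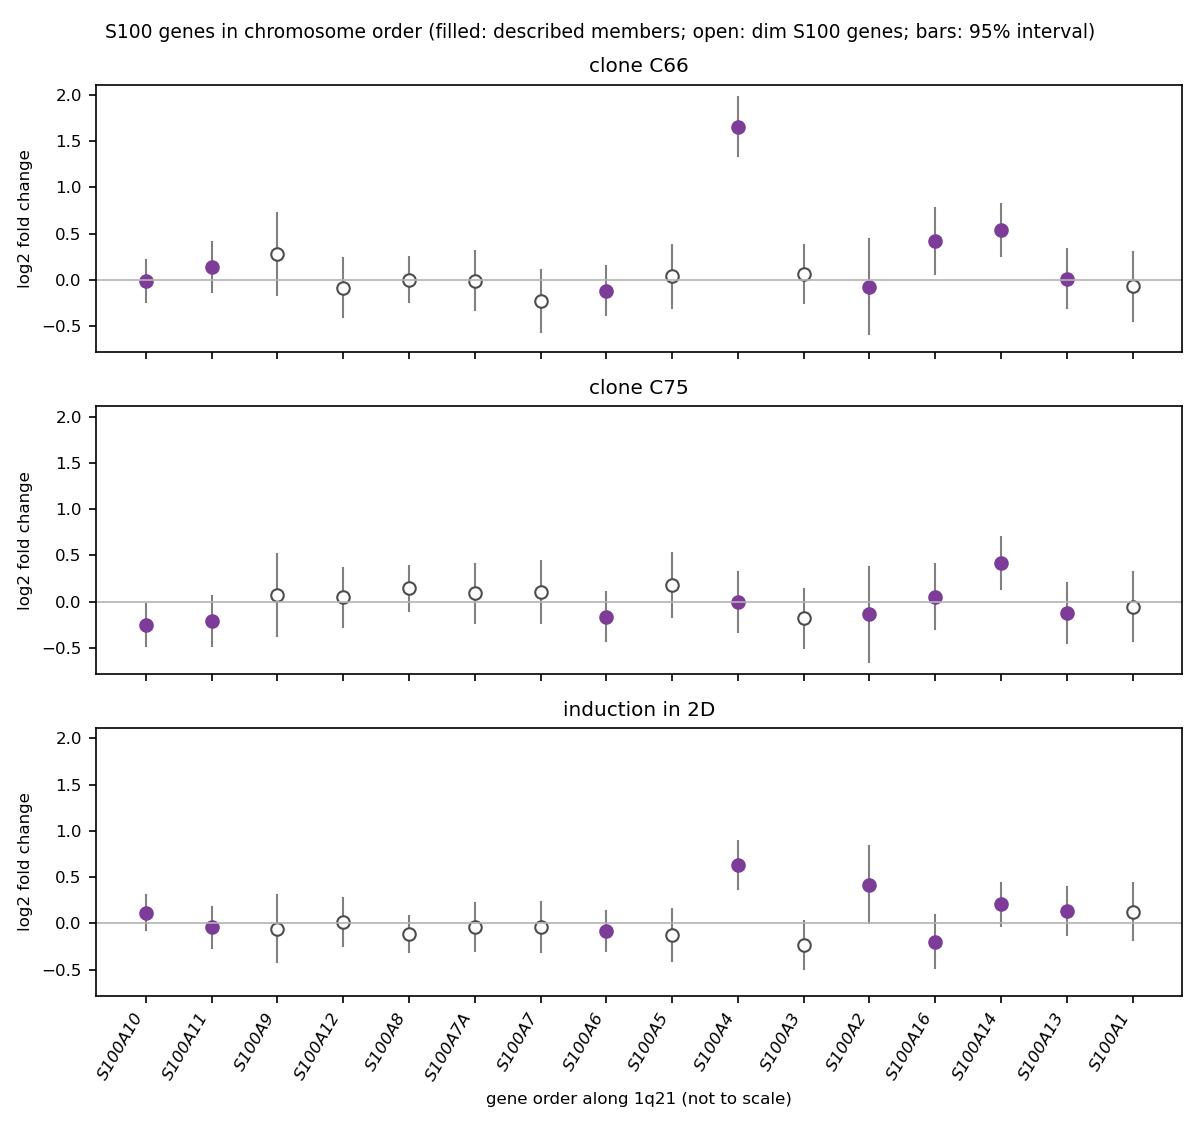
Log2 fold change (vertical axis) of the 16 S100 genes of chromosome 1 in gene order (horizontal axis, not to scale) in clone C66, clone C75 and induction in 2D; points are estimates and bars 95% intervals. In C66 S100A4 stands at 1.66 between S100A5 at 0.04 and S100A3 at 0.06, and S100A16 and S100A14 stand at 0.42 and 0.54.

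The 5 nearest tested genes on either side of S100A10, S100A1 and S100P were counted as well, leaving out S100 genes; 4 of them lie between S100A11 and S100A9. Of 24 such neighbours, 0 passed in limma in C66, C75 or with the shRNA, with 0, 1 and 0 at an unadjusted p under 0.05. Of all 17448 genes, 1.43%, 0.619% and 0.086% passed in these comparisons, and 1666, 1417 and 917 had an unadjusted p under 0.05. At shares of passing genes this low, 0 of 24 shows little about the neighbours. Several were dim, such as NPR1, TCHHL1 and THEM5 with 9.4%, 12.2% and 14.6% of genes below them, and a change in these could be missed. Others were bright, such as ILF2 with 99.2% below it. INTS3, an Integrator subunit gene beyond the S100A1 end, fell with induction in 3D (-0.39, adjusted p = 0.0213) and in 2D (-0.44, adjusted p = 0.0143). In the control line it was higher in 3D than in 2D (0.46, adjusted p = 0.00708), and ILF2, which encodes an RNA-binding protein, was lower (-0.41, adjusted p = 0.0260).

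Of 20 listed partners and receptors, 16 were measured. AHNAK, a giant scaffold that binds the S100A10 and annexin A2 complex, was higher in the induced line than in its control line in both cultures. In 3D the signal was 6.11, 5.93 and 5.96 with induction and 5.51, 5.44 and 5.53 in the control line, 0.51 log2 higher (SE 0.10, adjusted p = 0.00167). In 2D the values were 6.27, 6.24 and 6.43 over 5.72, 5.83 and 5.63, 0.59 log2 higher (SE 0.10, adjusted p = 0.000528). It was the 1 partner of 16 to pass in each of these comparisons, where 5.7% (3D) and 3.13% (2D) of all genes passed. In the shRNA and both clones the log2 fold changes of AHNAK lay between -0.06 and 0.01. With the shRNA 0 partners passed in limma and 1 had an unadjusted p under 0.05, against 0.086% and 5.26% of all genes.

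In C66, IQGAP1, a scaffold of the actin cytoskeleton, fell by 0.51 log2 (adjusted p = 0.0301), and MYH9, the myosin heavy chain that S100A4 binds, gave -0.31 (adjusted p = 0.535). In C75, IL1A, a cytokine whose release S100A13 assists, fell by 0.96 log2 (SE 0.19, adjusted p = 0.00978), at a signal below the median of all genes. With ANXA1 this made 2 of 16 partners lower in C75, where 0.619% of all genes passed. In the control line ANXA2 and CACYBP were the 2 partners lower in 3D than in 2D, and 0 were higher, where 7.8% of all genes passed. The plot of partner signals shows ANXA1 on opposite sides of its control in the clones.

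**Figure D4:**
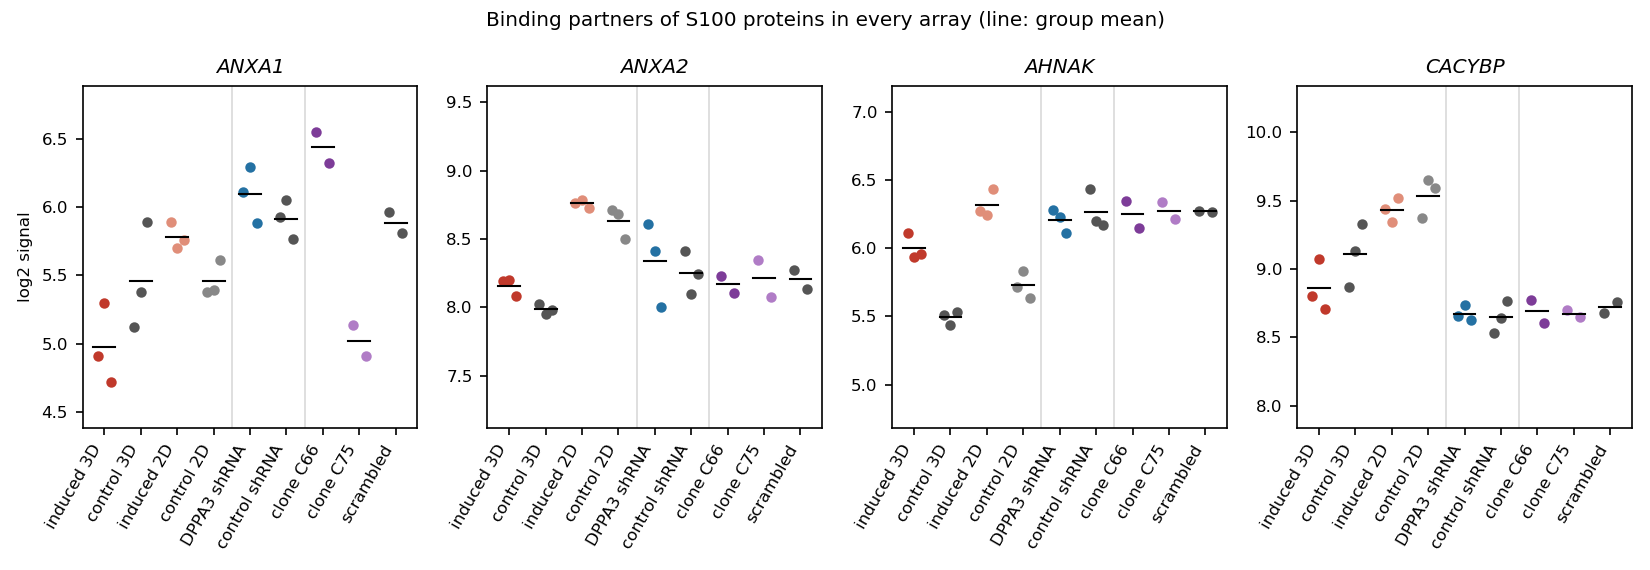
Log2 signal (vertical axis, the same span of 2.5 in each panel) of ANXA1, ANXA2, AHNAK and CACYBP in each of the 24 arrays by group (horizontal axis); points are arrays and black lines group means. ANXA1 stands at 6.55 and 6.32 in C66 but 5.13 and 4.91 in C75, and the AHNAK arrays of the induced line lie above those of the control line in both cultures.

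Of 20 other listed EF-hand calcium binders, 15 were measured. CALB1 (calbindin, a calcium buffer) rose by 0.88 in 3D (adjusted p = 2.25e-05) and 0.47 in 2D (adjusted p = 0.0243). CAPN2, the large subunit of a calcium-activated protease, rose by 0.86 (adjusted p = 0.000148) and 0.97 (adjusted p = 5.98e-05). EFHD2, an actin-binding protein, rose in 3D by 0.56 (adjusted p = 0.0106). CALU, a calcium binder of the secretory pathway, fell by 0.58 (adjusted p = 0.00212) and 0.50 (adjusted p = 0.0120), and CETN2, a centrosome protein, fell in 3D by 0.52 (adjusted p = 0.00510). This made 3 higher and 2 lower in 3D and 2 higher and 1 lower in 2D, where 5.7% and 3.13% of all genes passed. In C66 RCN2, a calcium binder of the endoplasmic reticulum, fell by 0.80 (adjusted p = 0.000794). It was the 1 of 15 to pass there, against 1.43% of all genes. In C75 and with the shRNA 0 of 15 passed in limma, against 0.619% and 0.086% of all genes. At an unadjusted p under 0.05 were 0 and 2, against 8.12% and 5.26%. RCN2 was also lower in C66 than in C75 (-0.56, adjusted p = 0.0144). CALB1 was higher in 3D than in 2D in the control line (0.47, adjusted p = 0.0149), and CALU (-0.39, adjusted p = 0.0386) and RCN2 (-0.42, adjusted p = 0.0172) were lower. The group means of CALB1 in 3D were 9.50 in the control line, 10.375 with induction and 10.489 to 10.686 in the shRNA and knockout groups, set side by side without a test.

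The genes whose pattern was most like that of each member that passed were sought among 8724 genes above the median signal, over 24 arrays centred within each experiment. For S100A4 they were TNNC1 (r = 0.853), GALNT5 (0.825) and CDK16 (0.791). In C66 these gave log2 fold changes of 1.35 (adjusted p = 1.11e-05), 0.70 (adjusted p = 0.00626) and 0.95 (adjusted p = 0.000247), and with induction 0 of the 3 passed in either culture in limma. For S100P they were YPEL5 (0.918), CLYBL (0.895) and TMEM59 (0.893), which rose with induction in 3D by 0.50 (adjusted p = 0.00218), 0.59 (adjusted p = 0.00440) and 0.36 (adjusted p = 0.0119). For S100A14 they were ACVR2A (0.818), PNPLA3 (0.814) and ETV4 (0.807). For S100A10 they were ALDH3A1 (0.803), NMU (0.789) and NENF (0.786), and for S100A16 RARG (0.741), SRSF8 (0.738) and TSPAN15 (0.728). These r values share arrays, groups and RNA, were picked as the highest of many and carry no test. The genes were chosen on the same arrays that give their fold changes. Their rises where the member rose were therefore partly built into the choice and are no separate support.

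Among the 36 pairs of members the same measure was highest for S100A11 and S100P (r = 0.656), S100A10 and S100A13 (0.586) and S100A4 and S100A10 (0.539). It was lowest for S100A6 and S100A14 (-0.486), over the same 24 arrays and with no test.

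The array medians lay between 4.03 and 4.13, replicate arrays correlated at 0.9874 to 0.9939 across genes, which are not independent replicates, and no arrays were identical. The number of arrays limited the precision, with a median SE of a log2 fold change of 0.12 for 3 arrays against 3 and 0.15 for 2 against 2. All 11 listed colorectal epithelial markers were above the median signal of all genes, with group means of 8.65 to 9.09. Of markers of other cells, 1 of 8 fibroblast, 1 of 5 leukocyte, 0 of 2 endothelial and 0 of 4 squamous genes were above it. S100A4 is also made by fibroblasts and macrophages. The fibroblast list averaged 2.99 to 3.02 in the C66 arrays and 2.97 to 3.07 in the scrambled arrays, with VIM near the bottom of the scale at 2.41 over all arrays. The leukocyte list averaged 3.14 to 3.16 in C66 and 2.96 to 3.02 in its control, with PTPRC (CD45) at 2.14 over all arrays. CD68, a lysosomal protein also used as a macrophage marker, rose in C66 by 0.71 (adjusted p = 0.0108), as did the epithelial keratin KRT20 by 0.61 (adjusted p = 0.0415), and both were higher in C66 than in C75, by 1.08 (adjusted p = 5.38e-05) and 0.97 (adjusted p = 0.000209). With induction in 2D, where S100A4 also rose, KRT20 fell by 0.54 (adjusted p = 0.0116) and CDH17, an intestinal cadherin, by 0.32 (adjusted p = 0.0482), while in 3D they gave 0.39 (adjusted p = 0.0665) and 0.05 (adjusted p = 0.904). The difference of induction between 3D and 2D passed for KRT20 (0.93, adjusted p = 0.0239). The part of these markers in the S100A4 results was not tested.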

How the data were processed

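RNA from the SW1222 lines, taken up in Trizol, was biotinylated and put on Affymetrix arrays, per the labels. The deposited values are log2 signals. Per the submitters' processing notes, the authors used RMA and Partek 6.6. RMA subtracts background, gives all arrays 1 distribution and summarises the probes of a set, so a change in total RNA is removed and changes of dim genes are compressed. A genome build for the probes is not given in the sources read.

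Of 20276 probe sets, 18062 carried 1 gene symbol, 1288 several and 926 none in the annotation used. The probe set with the highest mean stood for each of 17448 genes (468 had several). One model with a mean per group was fitted to all 24 arrays with limma 3.58.1 in R 4.3.3 (15 residual and 9.81 prior degrees of freedom). Tests were 2-sided, with Benjamini-Hochberg adjustment over all genes. The method was tested on simulated data. Promoter windows came from RefSeq (GRCh38.p14).

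The 9 genes, the lists (other S100 genes, partners and receptors, other EF-hand proteins, neighbours, cell type markers), the tests and the alternatives were chosen with earlier results of these data known. Named were all 9 members, DPPA3, every list member that passed in a comparison described (otherwise up to 3 with the largest change), and the 3 genes most like each member that passed. The main model had no replicate block. Deviations of same-numbered arrays from their group means correlated at -0.209 to 0.168. With 2 or 3 arrays a group this cannot settle whether the numbers pair arrays. Alternatives were a replicate block, the variance of the compared arrays alone, the mean of probe sets, a filter on dim genes, median centring, repeated quantile normalization, an intensity trend, array weights and leaving out each array.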

Additional observations from a re-analysis of the deposited data

Results flagged for a closer look

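S100A4 differed between the knockout clones. Its log2 fold change over the shared scrambled control was 1.66 in C66 and -0.007 in C75, and the test of the difference itself gave 1.66 log2 (limma, SE 0.16, adjusted p = 1.31e-07, n = 2 arrays per clone). Both C66 arrays (8.38 and 8.20) were above both C75 arrays (6.47 and 6.79). Each clone is 1 clone, so the state of the clone and the loss of DPPA3 cannot be told apart.

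Of the listed genes that are not members, 4 also differed between the clones by the same test, where 2.9% of all genes did. They were 1 of 16 partners, 1 of 15 other EF-hand genes, 1 of 11 colorectal epithelial markers and 1 of 5 leukocyte markers measured. In the other lists, among them 11 other S100 genes and 24 neighbours, 0 differed. ANXA1 (0.55 in C66 and -0.86 in C75 over the shared control) differed by 1.42 log2 (adjusted p = 3.57e-05), CD68 (0.71 and -0.37) by 1.08 (adjusted p = 5.38e-05) and KRT20 (0.61 and -0.36) by 0.97 (adjusted p = 0.000209). RCN2 (-0.80 and -0.24) gave -0.56 (adjusted p = 0.0144). The effect of induction on KRT20 differed between 3D (0.39) and 2D (-0.54), with a difference of 0.93 (limma, adjusted p = 0.0239, n = 3 arrays per group).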

How the results depend on the processing

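No result changed direction while called, and S100A4 passed under all 14 alternatives for induction in 2D (adjusted p up to 0.0425), all 12 for C66 (up to 0.00165) and all 12 for the difference between the clones (up to 0.000398). For induction in 3D it passed under 10 of 14, S100P under 9 of 14 and, in C66, S100A14 under 5 of 12. In the control line S100A16 passed under 10 of 14, S100P under 5 and S100A10 under 4. The number of members passing for induction in 3D went from 2 to 1 with a replicate block and to 1 with the variance of the compared arrays alone, and ranged from 0 to 3 when 1 array was left out. For C66 it went from 2 to 1 with the replicate block, with the variance of the compared arrays alone and with quantile normalization repeated, and was 1 without any single array. For the control line in 3D over 2D it went from 3 to 1 with the replicate block, with the variance of the compared arrays alone and with array weights, and ranged from 0 to 1 when 1 array was left out. The cause was not tested. Blocked adjusted p-values for induction in 3D were 0.0258 (S100A4) and 0.0533 (S100P). They were 0.0961 (S100A14) in C66, and 0.0683 (S100A10) and 0.0579 (S100P) in the control line. The log2 fold changes of these genes were the same with and without the block. Whether the numbers pair arrays is not known. The counts in the other 5 comparisons stayed within 1.5 times under every alternative run. Over single genes and settings, 39 calls were lost, 2 gained and 3 values moved without a call. Other scalings moved the median of all genes by at most 0.065 log2. Arrays left out in the knockout experiment leave a group with 1 array, assumed to vary like the others. Dim signals limit DPPA3 and the S100 genes below the median, and 2 or 3 arrays a group limit the rest.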
